A study of Rattus norvegicus with 27 samples.

Results

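Smgc encodes a mucin-like secreted glycoprotein first known as submandibular gland protein C. It was followed on 27 arrays of rat parotid acinar cells, through the 1 probe set of 31042 that carries its name, as 1 of 14217 genes with a probe set of their own. The gene was chosen by its levels on these same arrays. Earlier results had shown them low before birth, spread within P2 and P5, at their peak at P9 and low again by P15. Those levels and that spread are therefore given as a description without a test.

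Acinar cells were cut by laser from stained tissue sections of Sprague Dawley rats, an outbred and otherwise unmodified strain, at 9 ages: E18 and E20 before birth, P0 at birth, then P2 and P5, P9 and P15, and P20 and P25, counted in embryonic (E) or postnatal (P) days. Each age had 3 arrays, and each array stood for a different litter by the study's methods. Sections were made from heads divided along the midline up to P5 and from the dissected gland from P9 on, and no animal was treated. Levels are robust multi-array average (RMA) values, a background-corrected and normalised probe set signal on the log2 scale, on which 1 unit is a doubling.

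Rodent salivary mucins are large secreted proteins that carry many sugar chains and give saliva its viscosity. Smgc is best known from the submandibular and sublingual glands of newborn rodents, where immature secretory cells make it and adult serous cells do not. It shares its first exons with Muc19, a gel-forming mucin of the sublingual gland, so both are products of 1 locus. The parotid is a serous gland, and its mature acini make amylase, parotid secretory protein and proline-rich proteins in place of mucins.

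In the RefSeq annotation of build GRCr8, Smgc occupies chr7:124897424-124927730 on the plus strand, a span of 30307 bp. Muc19 has the same start and runs on to base 125018582, a span of 121159 bp. No probe set was named for Muc19, and without the probe sequences it could not be settled which transcripts of the locus the Smgc probe set reads. The coding neighbour before the locus, Lrrk2, had no probe set with that single symbol, while the neighbour after it, Cntn1, a neural adhesion protein, moved little, with age means between 4.11 and 4.90. The large swing of Smgc was not seen in the neighbour that could be read. Its means lay under every array median (5.91 to 6.13), so its flat level does not tell whether the locus moved as a whole.

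The 250 bases before the common start of Smgc and Muc19, chr7:124897174-124897423 in GRCr8, are shown because both transcripts begin there. Capitals mark the 3 motif matches that are described after it.

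Smgc upstream: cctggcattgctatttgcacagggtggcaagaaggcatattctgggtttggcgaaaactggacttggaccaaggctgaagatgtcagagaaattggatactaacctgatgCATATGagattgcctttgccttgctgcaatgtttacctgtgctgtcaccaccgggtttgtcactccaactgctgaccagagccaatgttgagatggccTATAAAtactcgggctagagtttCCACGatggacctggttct

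The CATATG match began at position -140, the TATAAA match at -42 and the CCACG match at -19 relative to the first transcribed base. Windows of 300 bases, 250 before and 50 after each start, were searched on both strands for TATAAA, a core promoter element, for CATATG and CAGCTG, forms of the E-box that basic helix-loop-helix factors such as MIST1 bind, and for 2 forms of the site bound by XBP1, the longer ACGTGG and the shorter CCACG, the second added after the sequence had been seen. The reverse complement of the shorter form lies within the longer, so a window with the longer form also holds the shorter. TATAAA was found in 14.22%, CATATG in 4.11% and CCACG in 31.60% of 33469 RefSeq promoter windows. CAGCTG, found in 15.06% of them, and ACGTGG, found in 7.84%, had no match in the window of Smgc. These are matches of letters, and no binding was measured here.

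Before birth Smgc lay at the bottom of the scale on nearly every array. At E18 the 3 arrays read 2.50, 2.60 and 2.75 log2 units, and at E20 they read 2.35, 2.43 and 2.60. At P0 they read 2.52, 3.19 and 5.90, with replicate 3 as the high array. Bpifa2, which encodes parotid secretory protein and is a defining acinar product, was at 3.22 to 4.05 at E18, reached 9.79 to 10.81 at P0 and stood between, at 5.70 to 7.6, at E20. Amy1, salivary amylase, was at 6.0 on E18 replicate 1, near the median of its array, and at 8.71 to 10.28 on the other E18 arrays and at E20. The labelled cell type thus carried amylase on most arrays from the first age, while Smgc was still low.

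After birth the level climbed, but unevenly. At P2 the arrays read 13.52, 7.22 and 5.99 for replicates 1, 2 and 3. At P5 they read 9.78, 13.09 and 12.05 in the same order. P2 replicate 1 was already above all 3 P9 arrays, while the lowest P2 array lay a factor of 184.3 below it on the linear scale. The lowest and the highest P5 array differed by a factor of 9.9. At P9 the 3 litters agreed closely, with 13.12, 13.23 and 13.42, and the Smgc probe set stood at or above the 99.86th percentile of its array on each.

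Smgc was then almost gone by P15, where the arrays read 3.05, 3.19 and 3.47. Between P9 and P15 the mean fell by 10.02 log2 units, a factor of at least 1038.5 if the P15 values are background, since on the E18, E20 and P15 arrays the probe set lay at or below the 11.86th percentile of its array. All P15 arrays lay below all P9 arrays. At P20 the arrays read 8.33 for replicate 1, 3.61 for replicate 2 and 2.92 for replicate 3, and at P25 they lay between 3.26 and 4.17. A single late array, P20 replicate 1, was therefore above the 2 lower P2 arrays.

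**Figure D1:**
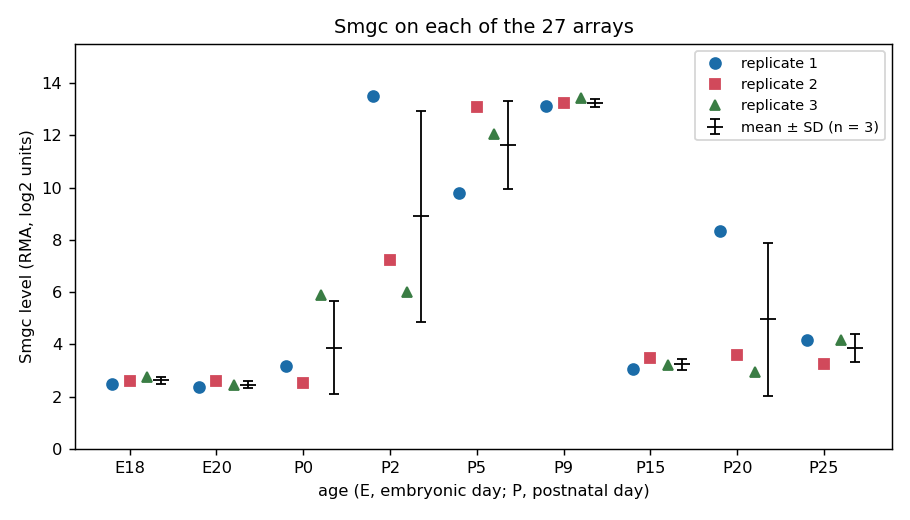
Smgc level (RMA, log2 units, vertical axis) on each of the 27 arrays by age (horizontal axis). Coloured symbols are the 3 replicates of an age and the black bar is their mean ± SD (n = 3). The P9 arrays sit together between 13.12 and 13.42 and the P15 arrays between 3.05 and 3.47, while the P2 arrays spread from 5.99 to 13.52 and 1 array each of P0 and P20 stands above the others of its age.

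Means by age, with SD over 3 arrays, were 2.62 ± 0.13 at E18, 2.46 ± 0.13 at E20 and 3.87 ± 1.79 at P0. They were 8.91 ± 4.04 at P2, 11.64 ± 1.69 at P5 and 13.26 ± 0.15 at P9. After the peak they were 3.24 ± 0.21 at P15, 4.95 ± 2.94 at P20 and 3.86 ± 0.53 at P25. In order of the mean the ages ran E20, E18, P15, P25, P0, P20, P2, P5 and P9. Neighbours in that order overlapped in their arrays except E18 and P15, where the highest E18 array (2.75) was below the lowest P15 array (3.05), and P5 and P9, where 13.09 was below 13.12.

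The span of 10.80 log2 units between the lowest and the highest age mean was among the 26 of 8 units or more, beside a span of 10.59 for Cst5, a salivary cystatin that peaked at P25. With the low end near background, spans this close have no order. Of the 27 arrays, 6 read above 12 units, 5 between 5 and 10, and 16 under 5. The arrays in the middle were P0 replicate 3, P2 replicates 2 and 3, P5 replicate 1 and P20 replicate 1. The distribution was thus mostly low or high, with few arrays between.

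The replicate spread of Smgc was wide at the transition ages and narrow at the peak. Its spread at P2 and P5 was part of the choice of the gene, so its place there among all probe sets is a description. Its SD of 4.04 at P2 was larger than that of 99.96% of the probe sets, and its SD of 2.94 at P20 larger than that of 99.99%. At P0 the SD of 1.79 exceeded 99.07% and at P5 the SD of 1.69 exceeded 98.87% of them. At P9, where Smgc lay close to the top of the scale, the SD of 0.15 exceeded only 12.66% of the probe sets. Several of these spreads rested on 1 array: without P2 replicate 1 the P2 mean was 6.61, without P5 replicate 1 the P5 mean was 12.57, without P0 replicate 3 the P0 mean was 2.85, and without P20 replicate 1 the P20 mean was 3.26. Less Smgc per cell and fewer cells that make it cannot be told apart in pooled captured cells.

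The order of the arrays was next set beside the proteins of parotid saliva, a list of 25 measured genes. Its brightest members were steady on the P2 and P5 arrays, and the list as a whole was not. Bpifa2 read 13.16, 12.96 and 12.91 on P2 replicates 1, 2 and 3 and 13.18, 13.17 and 13.03 on the P5 arrays. Amy1 read 12.70, 12.84 and 12.80 at P2 and 12.99, 12.43 and 12.75 at P5. These 2 products, close to the top of the scale, thus differed little between the high and the low Smgc arrays. The mean of the 9 acinar markers was 10.09 on P2 replicate 1 against 8.84 and 8.99 on replicates 2 and 3, and on the P5 arrays it was 9.20, 9.32 and 8.85. The mean of the saliva list was 7.80, 6.31 and 6.34 at P2 and 6.39, 7.29 and 6.39 at P5, so that the means of both lists were highest on the arrays where Smgc was highest. The lists share genes, Bpifa2, Amy1 and Car6 among them. Gene by gene the acinar markers did not all go that way at P5. Replicate 1, the lowest P5 array for Smgc, was the highest for 5 of the 9, and replicate 2 for 3.

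The saliva genes varied more between arrays of these ages than probe sets did in general. The range over the P2 arrays was under 2 log2 units for 16 of the 25 genes, against 90.6% of all probe sets, and 5 units or more for 3, while 62 of the 31042 probe sets had so wide a range. At P5 the range was under 2 units for 17 genes, against 94.5%, and 5 units or more for 1, Oprpn, against 58 of all probe sets. The median range of the list was 1.02 at P2 and 1.12 at P5, against 0.75 and 0.64 over all probe sets. Smgc had a range of 7.53 at P2 and 3.31 at P5. None of the 25 genes had exactly the order of Smgc over both the P2 and the P5 arrays, an order that 2.10% of all probe sets had.

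The 3 saliva genes with the widest P2 range were high on the array where Smgc was high. Oprpn, which encodes a mucin-type apoprotein of the rat submandibular gland, read 12.58, 2.76 and 2.86 on P2 replicates 1, 2 and 3, and 2.35, 10.47 and 6.11 on the P5 arrays. Car6, the secreted carbonic anhydrase, read 12.88, 5.10 and 6.25 at P2 and 7.55, 9.71 and 7.2 at P5. Smr3b, a submandibular proline-rich protein, read 10.93, 3.49 and 6.03 at P2 and 2.87, 6.62 and 5.38 at P5. On P5 replicate 2 all 3 were at their highest for that age, as Smgc was.

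Oprpn came closest to the course of Smgc at the later ages. It read 10.72, 10.82 and 12.16 at P9 and 2.67, 3.10 and 3.18 at P15, and then, unlike Smgc, read between 5.94 and 6.62 at P20 and between 7.34 and 10.19 at P25. Car6 read 9.47, 10.14 and 11.69 at P9 and 5.39 to 6.57 at P15, and ended at its highest level, 13.08 to 13.44, at P25. Both therefore shared the early peak of Smgc and had a late phase that it lacked.

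**Figure D2:**
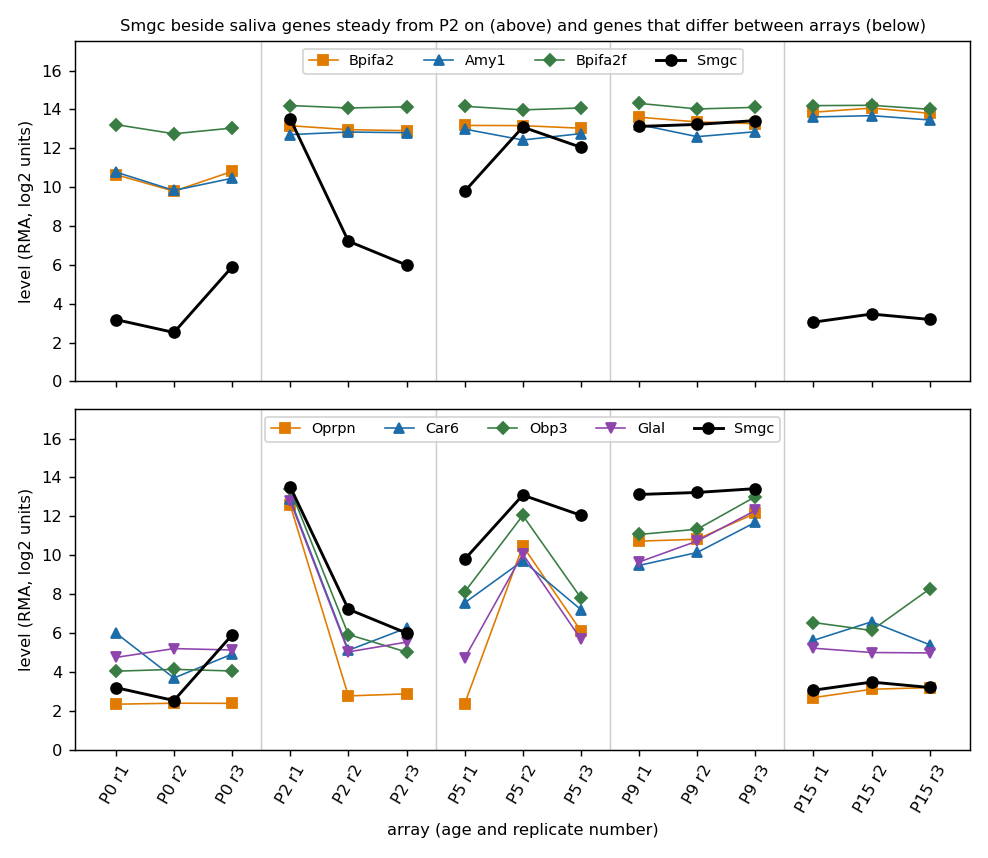
Levels (RMA, log2 units, vertical axis) of Smgc (black) and other secreted-protein genes on each array from P0 to P15 (horizontal axis, r for replicate), with lines joining arrays of 1 age only. In the upper panel Bpifa2, Amy1 and Bpifa2f differ by at most 0.56 units among the arrays of P2 and of P5 while Smgc differs by 7.53 and 3.31. In the lower panel Oprpn, Car6, Obp3 and Glal are highest on P2 replicate 1 and P5 replicate 2, as Smgc is.

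P2 replicate 1 was not a generally brighter array. It was the highest array of its age for 28.27% of all probe sets, and exceeded the next array by 3 units or more for 47 of them. The largest of these gaps, 10.62, was that of a probe set annotated to both Prr4 and Grpca. Smgc was among the 47, with a gap of 6.30, and so were Oprpn with a gap of 9.71, A2ml1 with 9.27, Glal with 7.26 and Car6 with 6.63. Replicate 1 was also the highest P2 array for 12 of 13 adipocyte markers and 14 of 15 skeletal muscle markers. The mean level of the adipocyte list was 9.45 on replicate 1, 6.89 on replicate 2 and 8.45 on replicate 3, and that of the muscle list was 8.58, 6.49 and 5.67. The part of these cells in the Smgc level was not tested.

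P20 replicate 1 was a different case. It exceeded the next array of its age by 3 units or more for 28 probe sets, led by Smgc with a gap of 4.72, and none of the 25 saliva genes was among them. Oprpn on that array was at 6.62 against 5.94 and 5.95 on the others of P20. P0 replicate 3, where Smgc stood 2.71 above the next array, had 22 probe sets with a gap of 3 units or more, and Oprpn there was at 2.38 against 2.33 and 2.38. It was the highest P0 array for 12 of 13 adipocyte markers, with a mean level of 7.10 against 5.76 and 5.38, and their part in the Smgc level was not tested. Smgc was thus high on these 2 arrays without Oprpn. Single genes that had gone with it were raised there. Adipoq read 7.17 on P0 replicate 3 against 5.00 and 5.15, and A2ml1 read 7.49 on P20 replicate 1 against 5.42 and 4.78. Others that had gone with Smgc varied less within these ages. At P0 the SD was 0.052 for Obp3, 0.123 for Grpca, 0.240 for A2ml1 and 0.245 for Glal. At P20 it was 0.493 for Obp3, 0.483 for Grpca, 0.528 for Adipoq and 0.215 for Glal.

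Sex was not labelled. A probe set of Xist, the RNA of the inactive X chromosome, read 11.00, 10.45 and 5.25 on the P2 arrays and 2.88, 10.93 and 3.77 on the P9 arrays. Xist was high on P2 replicates 1 and 2 and on P9 replicate 2. The part of sex in the Smgc level was not tested.

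The genes with the pattern most like Smgc were then taken from the probe sets with 1 gene symbol and a span of age means of at least 2 units, of which, with the unnamed ones, there were 5307. Likeness was the Pearson correlation over the 27 arrays, which share their ages, their depth of amplification and their normalisation. The first 10 were Obp3, a lipocalin (r = 0.836), A2ml1, a protease inhibitor of the alpha-2-macroglobulin family (0.836), Alox15, a lipoxygenase (0.813), Grpca, a glutamine and glutamate-rich salivary protein (0.813), Ppp2r2a, a subunit of protein phosphatase 2A (0.798), Tchh, the hair follicle protein trichohyalin (0.797), Krt25, an inner root sheath keratin (0.793), Ripply3, a transcriptional corepressor (0.775), Glal (0.772) and Adipoq, the adipocyte hormone adiponectin (0.770). Above the last of these were also 4 probe sets without a single symbol, the highest with r = 0.866. The list depended on the measure: rank correlation over the arrays and correlation over the 9 age means each shared 5 of these 10 genes.

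The 10 were chosen on these arrays, so their agreement with Smgc between replicates is part of the choice. Its form differed among them. Obp3 read 13.39, 5.92 and 5.02 at P2, 8.10, 12.05 and 7.80 at P5 and 11.07, 11.34 and 13.01 at P9. Glal read 12.78, 5.02 and 5.52 at P2, 4.70, 10.06 and 5.67 at P5 and 9.65, 10.73 and 12.30 at P9. Grpca read 11.997, 5.79 and 6.46 at P2, 5.97, 9.22 and 7.08 at P5 and 9.24, 10.04 and 11.76 at P9. All 3 had P2 replicate 1 and P5 replicate 2 as the high arrays of their age, as Smgc did, but at P9 replicate 3 stood well above the other arrays for each of them, where Smgc varied by 0.30. The lowest P5 array was replicate 3 for Obp3 and replicate 1 for Smgc, Glal and Grpca.

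The second Obp3 probe set read 11.01, 3.37 and 2.93 on the P2 arrays and so had the same high array. The Ppp2r2a probe sets disagreed, since that like Smgc read 12.95, 5.12 and 5.81 at P2 while the other lay between 7.96 and 9.18 on all 27 arrays. The likeness of the first is therefore a property of that probe set.

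Tchh and Krt25, the hair follicle genes among the 10, had the ages of Smgc but not its arrays. Other markers of hair follicle and epidermis did not all have those ages. Krt71 had age means of 7.46 at E18 and 9.49 at P9, and Krt1 of 7.77 and 4.55. Tchh read 9.59, 11.19 and 9.00 at P2, 10.43, 6.07 and 11.34 at P5 and 11.75, 9.98 and 7.42 at P9, and was at most 4.63 at P15. Krt25 read 11.17, 12.57 and 8.43 at P2, 11.93, 5.73 and 12.90 at P5 and 12.36, 11.03 and 9.29 at P9. P5 replicate 2, the highest P5 array for Smgc, was the lowest for both. Their correlation with Smgc was thus carried by the ages, with r = 0.934 for Tchh and 0.950 for Krt25 over the 9 age means.

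**Figure D3:**
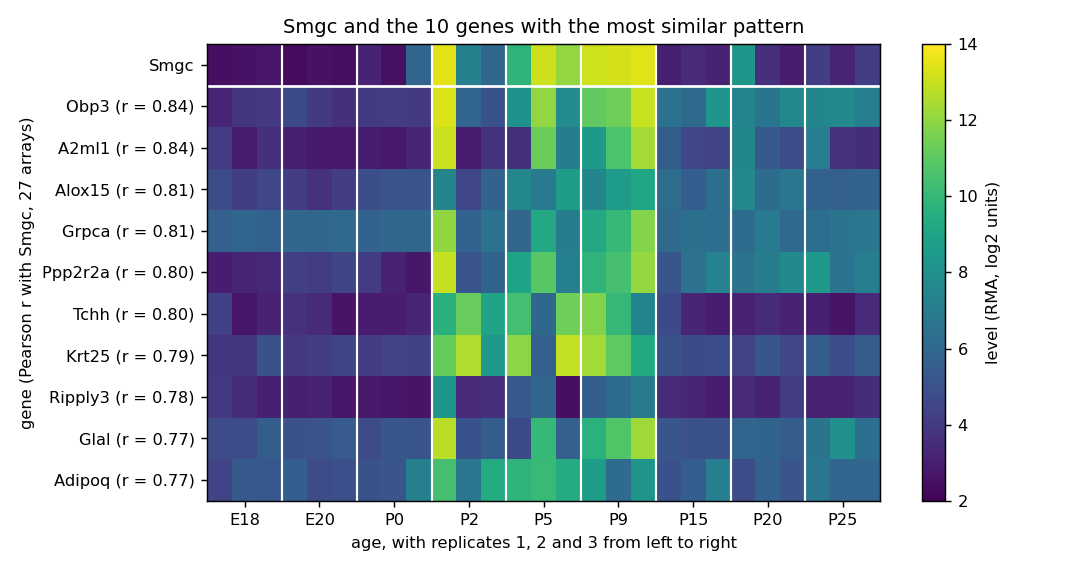
Levels (RMA, log2 units, colour) of Smgc (top row) and of the 10 genes with the highest Pearson correlation with it, on the 27 arrays in order of age with replicates 1 to 3 from left to right. Obp3, A2ml1, Grpca, Ppp2r2a and Glal are bright on P2 replicate 1, P5 replicate 2 and the P9 arrays, while Tchh and Krt25 are dark on P5 replicate 2 and bright on the other P5 arrays.

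The course of Smgc was placed among all genes with 3 contrasts fitted by limma over the 27 arrays and adjusted by Benjamini-Hochberg over 31042 probe sets, with a threshold of 0.05. The rise set P9 against the mean of E18, E20 and P0, the step set P15 against P9, and the late contrast set the mean of P15, P20 and P25 against P9. For Smgc these differences were 10.28, -10.02 and -9.24 log2 units. The rise also compares dissected glands with sectioned heads, and the 2 cannot be told apart, while the step and the late contrast lie within dissected glands.

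Upwards in the rise and downwards in the late contrast, the shape of Smgc, were 60 probe sets, or 0.193% of those tested. Smgc is among the 60 because it was chosen for that shape, and both contrasts use the same P9 arrays. A probe set annotated to both Prr4 and Grpca, and so not counted as a gene, changed by 9.82 and -7.60. Its smaller change came next after that of Smgc, and its late call was lost without P9 replicate 1, 2 or 3. Another such probe set changed by 6.90 and -6.22, and kept both calls in each of the 27 fits that left out 1 array. After Smgc the named genes with the largest smaller change were Tchh (a rise of 6.48 ± 0.82 SE and a late difference of -6.41 ± 0.82), Krt25 (6.63 and -5.93), Krt86, a hair keratin (5.24 and -5.02), and Glal (5.82 and -4.94). They were followed by Obp3 (7.84 and -4.58), Sprr1a, a cornified envelope protein (4.37 and -4.64), RatNP-3b, a neutrophil defensin (4.68 and -4.32), Grpca (4.45 and -3.91), S100a8, a calcium-binding protein of neutrophils (3.35 and -4.08), and Ripply3 (3.17 and -2.91). The 10 thus held hair follicle and epidermal genes, neutrophil genes and secreted proteins. Of these, Tchh, Krt25 and Krt86 passed in both contrasts in each of the 27 fits that left out 1 array, and so did RatNP-3b, although at P9 it read 3.93, 8.93 and 11.22. Without P9 replicate 3 the late calls of Glal, Obp3, Grpca, S100a8 and Ripply3 were lost, with limma's adjusted p at 0.116, 0.148, 0.0978, 0.0674 and 0.152. The late call of Sprr1a was lost in 21 of the 27 fits and reached 0.339 without P9 replicate 1. Loss without other single arrays was seen for Glal (P9 replicate 2), Obp3 (P9 replicates 1 and 2, P15 replicate 2) and Ripply3 (P9 replicates 1 and 2, P15 replicates 2 and 3).

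No saliva gene of the list passed both contrasts with the shape of Smgc in the fit over all ages, and Oprpn, described next, did so only under some settings. The list does not hold every salivary protein. Grpca is not on it and passed both contrasts, as did the probe sets annotated to both Prr4 and Grpca given above. In the rise 13 of 25 rose and 0 fell, against 3.23% of all probe sets higher and 4.83% lower, and at an unadjusted p under 0.05 limma gave 17 and 0. The median change of the list was 2.24 log2 units, against 0.09 over all probe sets. In the late contrast 14 rose and 0 fell, against 1.34% higher and 1.16% lower, and at an unadjusted p under 0.05 there were 16 and 2. The 13 and the 14 stand in contrasts that share the P9 arrays.

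Those that rose to P9 included the leading parotid products. Bpifa2 rose by 6.46 ± 0.28 log2 units (limma, adjusted p = 2.70e-12), Smr3a, a proline-rich salivary protein, by 7.61 ± 0.35 (adjusted p = 7.91e-12) and Pip, the prolactin-inducible protein, by 6.85 ± 0.43 (adjusted p = 1.54e-09). None of the 3 fell after P9 as Smgc did: the late difference of Bpifa2 was 0.64 ± 0.28 (adjusted p = 0.289), and Smr3a rose by a further 2.14 ± 0.35 (adjusted p = 0.0014). Oprpn rose to P9 by 8.72 ± 1.47 (adjusted p = 9.71e-04), and its late difference was -5.32 ± 1.47 (adjusted p = 0.0573). Oprpn had the largest negative late difference of the saliva genes, and its call turned on the arrays that set the spread. It passed in 4 of the 8 other settings, with adjusted p = 0.0004 when only P9 and the later ages were fitted, and in 5 of the 27 fits that left out 1 array, with adjusted p = 0.0026 without P2 replicate 1, 0.0435 and 0.0428 without P2 replicates 2 and 3, and 0.0355 and 0.0308 without P5 replicates 1 and 2. In the step its difference was -8.25 ± 1.80 (adjusted p = 0.107). There it passed in limma in 2 of the 8 other settings, with array weights (adjusted p = 0.0387) and with only the ages compared (0.0025). Of the 27 fits that left out 1 array it passed in 1, that without P2 replicate 1 (0.0017).

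A later group came up as Smgc went down. In the step from P9 to P15, 19 probe sets passed, 7 higher (0.0226%) and 12 lower (0.0387%), and at an unadjusted p under 0.05 there were 1898. The 12 include Smgc, which was chosen for its loss by P15, so its place among them is a description. Of the saliva genes 3 rose and 0 fell, with 9 and 2 at an unadjusted p under 0.05. Chia, an acidic chitinase, rose by 5.79 ± 0.35 (adjusted p = 2.75e-09). Dmbt1, a scavenger receptor protein of saliva, rose by 5.59 ± 0.91 (adjusted p = 0.0130) and Pigr, which carries immunoglobulin A into saliva, by 3.88 ± 0.66 (adjusted p = 0.0187). Without P15 replicate 1 the last 2 had adjusted p = 0.139 and 0.144. Dmbt1 also lost the call without P9 replicate 3 or P15 replicate 2, and Pigr without P9 replicate 1, P15 replicate 2 or P15 replicate 3. The list's count was 1 without P15 replicate 2 and 5, of which 2 fell, without P2 replicate 1.

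The named genes that fell in that step beside Smgc were Tchh, Krt86, Krt71 and Krtap1-5, all of the hair follicle, and Emb, an adhesion protein. The changes of Tchh (-6.08 ± 1.01), Krt86 (-5.21 ± 0.92) and Krt71 (-4.88 ± 0.84) had adjusted p = 0.0159, 0.0273 and 0.0210. All 3 calls were lost without P9 replicate 1, P9 replicate 2, P15 replicate 2 or P15 replicate 3, and those of Krt86 and Krt71 also without P15 replicate 1. The adjusted p reached 0.123 for Tchh, 0.144 for Krt86 and 0.139 for Krt71.

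Other measured mucins, Oprpn apart, showed no course like that of Smgc. Of 13 measured mucins and mucin-like proteins 1 rose to P9, Oprpn, which is also on the saliva list, and 0 fell. At an unadjusted p under 0.05 limma gave 3 higher and 0 lower in the rise. In the step and in the late contrast 0 of the 13 passed in limma, with 1 lower in the step and 1 higher and 1 lower in the late contrast at an unadjusted p under 0.05. The 0 became 1, which was Oprpn, in the settings under which it passed. The other 12 had spans of age means between 0.60 and 2.01 log2 units. Several lay under the array medians (5.91 to 6.13) at every age, such as Muc2 at 3.71 to 5.12 and Muc13 at 3.59 to 4.46. A course of theirs could have gone unread there, while Podxl lay higher, at 7.90 to 9.43. The list held 19 genes, and those beyond the 13 had no probe set.

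Muc5b, the gel-forming mucin of sublingual and minor glands, had the span of 2.01. It read 4.91, 7.53 and 4.93 at P2, 7.65, 5.18 and 7.93 at P5 and 7.56, 5.70 and 5.05 at P9, so that P2 replicate 1 and P5 replicate 2, the high arrays for Smgc, were low for it. The membrane mucins Muc1 and Muc4 had age means of 5.72 to 7.09 and of 4.84 to 5.44. The trefoil peptides Tff1, Tff2 and Tff3, which are secreted along with mucins, had rise differences between -0.02 and 0.10.

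The wider programme of mucous cells, 34 measured genes for its transcription factors, the enzymes of O-glycosylation and helpers of mucin secretion, had no member that fell after P9 at the threshold. In the rise 5 rose and 1 fell, against 3.23% higher and 4.83% lower over all probe sets, with a median of 0.35 against 0.09, and 10 were higher and 3 lower at an unadjusted p under 0.05. In the late contrast 2 rose and 0 fell, against 1.34% and 1.16%, with a median of 0.14, and limma gave 4 higher and 1 lower at an unadjusted p under 0.05. In the step 0 passed, with 2 higher and 1 lower at an unadjusted p under 0.05. Spdef, a factor of goblet and mucous cells, rose to P9 by 2.44 ± 0.41 (adjusted p = 9.83e-04), and its late difference was 0.31 ± 0.41 (adjusted p = 0.812), so that it was not lost with Smgc. Kcnn4, a calcium-activated potassium channel, rose by 2.05 ± 0.34 (adjusted p = 8.47e-04).

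The other calls of that list in the rise were less steady. Without P9 replicate 2 all calls of the list there numbered 2 in place of 6, and without E18 replicate 1, E20 replicate 1, P9 replicate 1 or P9 replicate 3 they numbered 3. Galnt3, a transferase that starts O-linked sugar chains, rose in the late contrast by 2.61 ± 0.26 (limma, adjusted p = 2.89e-06), when Smgc was already low. Its call held in each of the 27 fits that left out 1 array. The late rise of Kcnn4, 1.38 ± 0.34 (limma, adjusted p = 0.0292), was lost without P9 replicate 2, P9 replicate 3 or P15 replicate 2.

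Proteins known from the submandibular and sublingual glands of the newborn were also examined, since Smgc is one of that group. Of 18 measured genes 5 rose to P9 and 1 fell, against 3.23% and 4.83% of all probe sets, with 9 and 1 at an unadjusted p under 0.05. In the late contrast 3 rose and 1 fell, against 1.34% and 1.16%, with 7 and 2 at an unadjusted p under 0.05. In the step 0 passed in limma, with 2 higher and 1 lower at an unadjusted p under 0.05. Bpifa2f, the protein B of the neonatal submandibular gland, rose by 3.37 ± 0.31 (adjusted p = 8.25e-07) and stayed high, at 14.20, 14.07 and 14.14 at P2, at 14.31, 14.02 and 14.11 at P9 and at a mean of 14.14 at P15. Bpifa1, an airway and oral relative, had a late difference of -2.71 ± 0.41 (adjusted p = 5.83e-04) and was lower at P9 than before birth, by 1.88 ± 0.41 (adjusted p = 0.0076, and 0.0578 without P9 replicate 3). Neither had the rise and loss of Smgc. Smr3b, also on that list, rose to P9 by 5.63 ± 1.34 (limma, adjusted p = 0.0133, and 0.0827 without P9 replicate 1). Its age means, with SD, were 8.54 ± 2.22 at P9, 5.36 ± 2.74 at P15, 5.03 ± 2.44 at P20 and 4.20 ± 2.31 at P25. It was thus lower after P9, with wide spread, and did not pass in the late contrast.

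Markers of other tissues moved with some of the same ages. The mean level of 10 hair follicle and epidermis markers was 6.20 to 7.94 on the P9 arrays, 4.52 to 5.03 on the P15 arrays and 5.05 to 8.27 before birth. That of 15 skeletal muscle markers was 9.26 to 12.35 at P9 and 5.09 to 7.61 at P15, and that of 13 adipocyte markers 6.61 to 8.23 and 6.15 to 7.12. The 9 acinar markers stood at 9.54 to 10.09 at P9 and 10.08 to 10.42 at P15. Hair, muscle and adipocyte markers were thus present on arrays of the Smgc peak, and acinar markers were as high at P15, when Smgc was low.

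Of 10 hair markers 2 rose to P9, 2 fell in the step and 4 fell in the late contrast, against 3.23% of all probe sets higher in the rise, 0.0387% lower in the step and 1.16% lower in the late contrast. Of 15 muscle markers 2 rose to P9, and none passed in the step, yet there 13 were lower at an unadjusted p under 0.05 with a list median of -4.92 log2 units. In the late contrast none of the 15 passed either, with 1 higher and 10 lower at an unadjusted p under 0.05. Most muscle markers were thus lower at P15, where Smgc was low, without passing the adjusted threshold. Of 13 adipocyte markers 6 rose to P9, and none passed in limma afterwards, with 0 higher and 2 lower in the step and 0 higher and 6 lower in the late contrast at an unadjusted p under 0.05. None of the adipocyte calls passed without P9 replicate 1 or without P9 replicate 3, none of the muscle calls of the rise without P9 replicate 3, and none of the hair calls of the step without P9 replicate 1, P9 replicate 2, P15 replicate 2 or P15 replicate 3. With the mean levels of the muscle, hair and cartilage lists as covariates, Smgc differed by 10.03 ± 1.33 SE in the rise, by -9.40 ± 1.86 in the step and by -8.73 ± 1.56 in the late contrast. Adipocyte markers were not among these covariates, and their part was not tested.

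**Figure D4:**
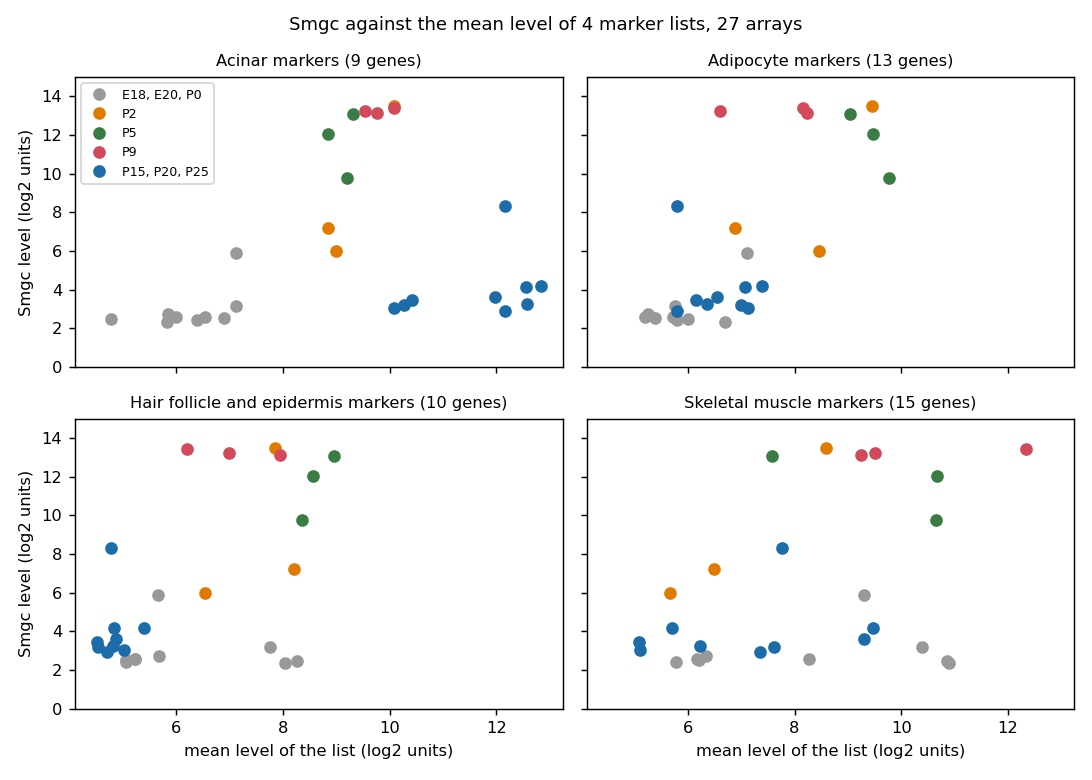
Smgc level (vertical axis) against the mean level of the acinar, adipocyte, hair follicle and epidermis, and skeletal muscle marker lists (horizontal axes, all in RMA log2 units), 1 point per array, coloured by age. Acinar markers climb with age while Smgc is high only from P2 to P9 and on P20 replicate 1; high muscle or hair marker levels occur both with high and with low Smgc.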

How the data were processed

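The study hybridised amplified RNA from laser-captured parotid acinar cells to Affymetrix rat genome arrays, 27 in all. The authors background-corrected, normalised and summarised the arrays by RMA and deposited log2 values per probe set. The software and its version are not given in the sources used here, nor are scan dates or which arrays began from 1.5 or 4.5 ng of RNA. Of 31099 probe sets 57 array controls were left out. Array medians lay between 5.91 and 6.13, and arrays of 1 age correlated at 0.873 to 0.962. Depth is not defined for arrays, and 3 per age limit the precision.

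Probe sets were named from the platform annotation, with symbols updated by gene ID through RefSeq (20758 of 20826 with 1 symbol matched). Symbols joined to others (436 probe sets) and unnamed probe sets (9780) were not used as genes. Promoter sequence came from RefSeq GRCr8.

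Models were fitted across all probe sets with limma 3.58.1 in R 4.3.3 (lmFit and eBayes on 9 age means, 18 residual degrees of freedom), with Benjamini-Hochberg adjustment and a threshold of 0.05. Plots and tables used Python 3.11.15, and the fit was tested on simulated data. A gene with several probe sets entered a list with 1 of them. Named genes were Smgc, the 10 most correlated with it, the 10 leading genes up in the rise and down in the late contrast, up to 4 called genes per list and contrast, the saliva proteins, the mucins and the neighbours. Smgc and the lists were chosen with earlier results of these data known. Alternatives were quantile normalisation, median centring, a filter on dim probe sets, the replicate block, array weights, only the ages compared, trend and robust moderation, marker covariates and leaving out each array.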

Additional observations from a re-analysis of the deposited data

How the results depend on the processing

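Over 36 fits, the reported one among them, the difference of Smgc ran from 10.03 to 10.62 in the rise. It ran from -10.14 to -9.40 in the step and from -9.80 to -8.73 in the late contrast. Fits that left out an array of an age outside a contrast could not move its difference. Smgc was chosen for these differences, so their steadiness is a description. None of the results recomputed under the alternatives reversed. Counts of called probe sets moved more. The rise to P9, 2501 probe sets, was 1659 after quantile normalisation and 1437 to 2736 with 1 array left out, with 1569, 1437 and 1546 without P9 replicates 1, 2 and 3. Median centring split it into 694 higher and 1657 lower in place of 1002 and 1499. The step, 19 probe sets, was 33 after quantile normalisation, 70 with array weights, 8 with only the ages compared and 5 with marker covariates. It ran from 7 to 50 with 1 array left out: 50 without P2 replicate 1, and 8, 7 and 11 without P15 replicates 1, 2 and 3. The late contrast, 774 probe sets, was 420 with only the ages compared, 350 with marker covariates and 418 to 837 with 1 array left out, with 418 and 486 without P9 replicates 1 and 2. The 60 probe sets up in the rise and down in the late contrast became 28 with marker covariates and 43 to 69 with 1 array left out. Of the 10 genes most like Smgc, 5 were shared by rank correlation, 5 by correlation over age means, and 6 to 10 with 1 array left out, a check chosen after seeing the data, with 6 without P9 replicate 2. The causes were not tested.

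Replicate numbers recur across ages, and no label ties same-numbered samples together. Deviations of same-numbered arrays correlated between -0.108 and 0.459 over 108 pairs, with a median of 0.014 against -0.009 for different numbers. Of the 27 arrays 16, not all, correlated best with their own number, where 9 would if the numbers were alike, a hint from the data and not from the design. With a replicate block the counts were 2561 in the rise, 18 in the step, 816 in the late contrast and 60 in both directions.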
